A study of Mus musculus with 5 samples.

Results

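The regions described here are 1 kb stretches of the mouse autosomes at which DNA methylation was low in 1 teratoma, P5_LCDM, and higher in the other 3 teratomas. The genome (build mm10) was divided into fixed 1 kb tiles, and a tile was eligible when 5 or more cytosines in it were listed in all 5 libraries of the series. The level of a tile was the mean methylation percent of those cytosines. A tile was taken when its level in P5_LCDM was 30 percentage points or more below the lowest of P5_2iL, P5_2iL_F and P5_a2iL, and 4075 of 158035 eligible tiles (2.58%) met this rule. The difference between the lowest of the other 3 teratomas and P5_LCDM is called the gap below. Because the gap chose the tiles, levels in the teratomas are a description and were not tested.

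The series holds reduced representation bisulfite libraries of 5 tissues from mice of the C57BL/6x129S6 background, with 1 library for each group. The control is muscle. The other 4 are teratomas, tumours of mixed differentiated tissue that pluripotent cells form, and they arose once embryonic stem cells had been injected into tetraploid embryos. The stem cells had been grown under the conditions that the labels name P5_2iL, P5_2iL_F, P5_a2iL_1 and P5_LCDM_1, of which the last pair is written here as P5_a2iL and P5_LCDM. No transgene, deletion or age is named in the labels, and whether a teratoma came from 1 animal or from several is not stated there. With 1 library a group, differences compare libraries and not culture conditions, and no difference has a replicate check.

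In mammals DNA methylation sits mostly on the cytosine of CpG dinucleotides. Most CpGs of differentiated tissue are methylated, whereas CpG islands at gene starts are largely free of methylation, and enhancers and other distal elements often lose methylation in the cell types that use them. Reduced representation bisulfite sequencing reads the CpGs of fragments cut at CpG-containing restriction sites, so it covers CpG-rich sequence more densely than the rest of the genome. In tissue of mixed cells, fewer cells of a type and less methylation per cell cannot be told apart.

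The libraries listed 4017125 (muscle) to 5323090 (P5_2iL_F) cytosines, and the number of reads behind each percent is unknown. Mean levels over the eligible tiles were 61.0% in P5_LCDM, 59.7% in muscle and 69.0%, 68.2% and 64.6% in P5_2iL, P5_2iL_F and P5_a2iL, so P5_LCDM was the least methylated teratoma over all tiles. The muscle label was checked at the ends of 7 skeletal muscle genes (Ldb3, Tnni1, Tnni2, Tnnc2, Casq1, Mb and Lmod3), and muscle was the lowest of the 5 libraries at 7 of 7. At the ends of 5 measured blood genes (Rac2, Itgb2, Vav1, Arhgap30 and Spi1) the levels ranged from 21.1% to 67.8% in P5_LCDM and 38.9% to 81.0% in muscle, and the lowest and highest were 0.582% and 95.6% in P5_2iL, 0% and 90.6% in P5_2iL_F, and 14.5% and 51.0% in P5_a2iL. P5_2iL was below P5_LCDM at 4 of them, Itgb2 (0.617% against 38.3%), Vav1 (0.582% against 21.1%), Arhgap30 (0.952% against 44.7%) and Rac2 (47.3% against 67.8%), and above it at Spi1 (95.6% against 65.6%). The libraries thus differed at blood genes as well, and the part of blood cells in the tiles described below was not tested.

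In the tiles low only in P5_LCDM lay 37 promoter windows (250 bases before to 50 bases after a gene start) with 3 or more cytosines listed in all 5 libraries. The 5 windows with the largest gap among those with 5 or more such cytosines are printed because they show the CpGs at which the difference was read. They were chosen after their values had been seen. Sequences are from RefSeq on GRCm38.p6, the same build as mm10, written 5′ to 3′ on the strand of the gene, and capitals mark the CpGs with a cytosine listed in all 5 libraries. Hoxa5 lies at chr6:52204538-52204837 on the minus strand, Fblim1 at chr4:141606003-141606302 on the minus strand, Slc6a9 at chr4:117849100-117849399 on the plus strand, Spata46 at chr1:170308569-170308868 on the plus strand and Zap70 at chr1:36761548-36761847 on the plus strand.
Hoxa5: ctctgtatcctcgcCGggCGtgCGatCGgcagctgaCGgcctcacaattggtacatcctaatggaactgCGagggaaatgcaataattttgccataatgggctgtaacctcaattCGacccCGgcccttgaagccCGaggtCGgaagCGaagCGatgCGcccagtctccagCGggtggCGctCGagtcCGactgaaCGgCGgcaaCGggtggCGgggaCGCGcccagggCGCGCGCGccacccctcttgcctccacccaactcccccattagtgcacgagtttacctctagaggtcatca
Fblim1: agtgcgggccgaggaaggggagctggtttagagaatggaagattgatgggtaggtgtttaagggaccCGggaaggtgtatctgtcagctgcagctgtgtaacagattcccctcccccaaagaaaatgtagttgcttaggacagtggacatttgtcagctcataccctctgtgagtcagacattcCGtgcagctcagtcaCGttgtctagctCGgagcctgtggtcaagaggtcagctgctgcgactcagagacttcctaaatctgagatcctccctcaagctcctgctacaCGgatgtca
Slc6a9: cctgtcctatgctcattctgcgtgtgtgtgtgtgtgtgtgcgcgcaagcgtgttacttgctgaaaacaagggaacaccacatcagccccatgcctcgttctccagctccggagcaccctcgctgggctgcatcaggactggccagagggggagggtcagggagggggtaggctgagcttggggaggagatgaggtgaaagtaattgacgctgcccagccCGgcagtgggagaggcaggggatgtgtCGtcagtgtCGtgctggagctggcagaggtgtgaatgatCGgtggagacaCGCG
Spata46: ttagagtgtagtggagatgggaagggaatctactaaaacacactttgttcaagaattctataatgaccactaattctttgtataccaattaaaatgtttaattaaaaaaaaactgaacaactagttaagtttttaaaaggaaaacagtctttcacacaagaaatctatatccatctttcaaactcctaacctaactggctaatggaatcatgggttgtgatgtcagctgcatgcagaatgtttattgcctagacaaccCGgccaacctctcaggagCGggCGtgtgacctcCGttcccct
Zap70: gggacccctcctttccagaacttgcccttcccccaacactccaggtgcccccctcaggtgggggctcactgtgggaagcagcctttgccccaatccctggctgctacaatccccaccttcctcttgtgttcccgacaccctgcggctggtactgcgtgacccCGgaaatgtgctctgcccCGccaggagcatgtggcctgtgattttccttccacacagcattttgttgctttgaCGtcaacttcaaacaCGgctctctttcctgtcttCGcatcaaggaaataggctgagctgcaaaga

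The window of Hoxa5, a homeobox gene of axial patterning, held 29 CpGs, against a median of 7 over 31396 promoters of the autosomes other than chromosome 18. Over its 53 shared cytosines the level was 3.14% in P5_LCDM, 4.94% in muscle and 92.6%, 65.1% and 72.6% in P5_2iL, P5_2iL_F and P5_a2iL. Muscle and P5_LCDM were thus both almost unmethylated at the Hoxa5 start, and the remaining teratomas were methylated. At Fblim1, which encodes a filamin-binding protein of cell adhesions, 9 cytosines were at 23.6% in P5_LCDM, 35.4% in muscle and 87.4%, 84.2% and 84.4% in P5_2iL, P5_2iL_F and P5_a2iL. The window of Zap70, a kinase of the T cell receptor pathway, was at 28.2% in P5_LCDM, 25.8% in muscle and 82.4%, 79.0% and 80.1% in P5_2iL, P5_2iL_F and P5_a2iL. At these windows muscle was closer to P5_LCDM than to the other teratomas. At Slc6a9, a glycine transporter gene, the levels were 37.1% in P5_LCDM, 69.1% in muscle and 92.9%, 95.5% and 90.9% in P5_2iL, P5_2iL_F and P5_a2iL. At Spata46, a gene of sperm development, they were 40.5% in P5_LCDM, 62.9% in muscle and 98.0%, 93.0% and 97.1% in P5_2iL, P5_2iL_F and P5_a2iL. P5_LCDM was the lowest of all 5 libraries at each printed window except Zap70, and it was furthest below muscle at Slc6a9 and Spata46.

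The tiles were of intermediate methylation in P5_LCDM rather than unmethylated. Their median level there was 41.7% (quartiles 30.6% and 50%), against 82.2% in P5_a2iL, 87.5% in P5_2iL_F and 88.9% in P5_2iL. In P5_LCDM 90.7% of the tiles lay between 20% and 80%, and 377 (9.25%) were under 20%. Over all eligible tiles these shares were 44.05% and 18.4%. The rule takes no tile that was unmethylated in the other 3 teratomas and none that was highly methylated in P5_LCDM, so the shares follow in part from it. Over all eligible tiles the medians were 71.9% in P5_LCDM, 78.5% in P5_a2iL, 85.8% in P5_2iL_F and 87.6% in P5_2iL. The gap had a median of 35.8 points, quartiles of 32.5 and 41.6 points and a maximum of 96 points. P5_a2iL was the lowest of the other 3 teratomas in 61.1% of the tiles, close to its 57.0% of all eligible tiles.

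**Figure D1:**
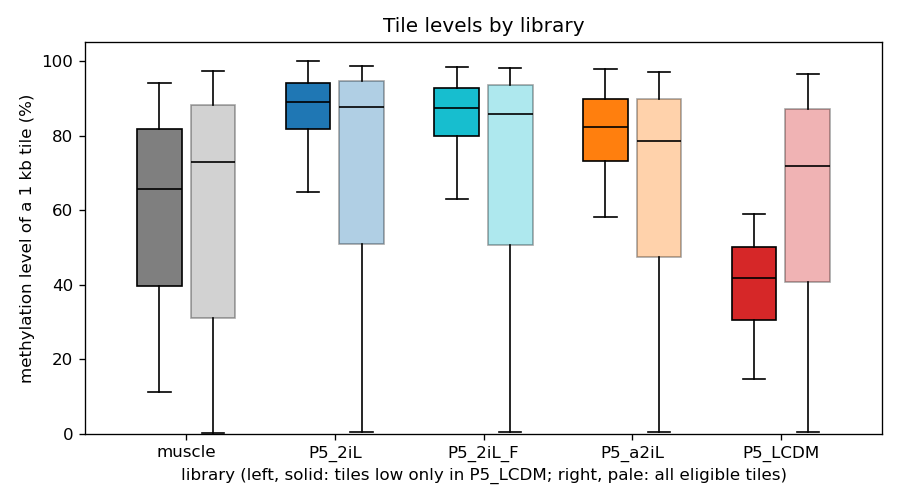
Methylation level in percent (vertical axis) of 1 kb tiles in each library, for the 4075 tiles low only in P5_LCDM (solid boxes) and all 158035 eligible tiles (pale boxes). Boxes show the median and quartiles and whiskers the 5th and 95th percentiles over tiles. P5_LCDM has a median of 41.7% in the chosen tiles, below muscle at 65.6% and the other teratomas at 82.2% to 88.9%.

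The same rule applied with another teratoma in the place of P5_LCDM took fewer tiles. It took 63 tiles (0.0399%) low only in P5_2iL, 67 (0.0424%) low only in P5_2iL_F and 898 (0.568%) low only in P5_a2iL. A tile at which P5_2iL and P5_2iL_F are alike cannot be taken for either of them. Their mean levels were close, at 69.0% and 68.2%, so these counts are not a like for like background for P5_LCDM. In the opposite direction, 610 tiles (0.386%) were 30 points or more higher in P5_LCDM than in the other 3 teratomas, 381 (0.241%) in P5_a2iL, 89 (0.0563%) in P5_2iL and 39 (0.0247%) in P5_2iL_F. With the mean levels of the 4 teratomas made equal, 2176 tiles met the rule for P5_LCDM.

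How far the difference repeats within the library was read from the opposite strands of the same tiles. In the 100771 eligible tiles with 3 or more CpGs that had both strands listed, tiles were chosen by the rule on 1 strand and read on the other. The 3261 tiles chosen for P5_LCDM on the forward strand had a median gap of 18.6 points on the reverse strand, where 25.9% reached 30 points. For P5_a2iL the corresponding median was 3.21 points and 8.18% reached 30 points. For P5_2iL and P5_2iL_F the medians were -5.80 and -11.3 points, and 2.11% and 0.971% reached 30 points. The limit given above for these similar libraries applies here too. By the rule the strand used for the choice had 30 points or more, so in each teratoma the median was lower on the strand that was not used. Both strands come from 1 DNA sample and 1 library, so this reading leaves out the spread between animals.

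Cytosines that the rule did not use gave a further reading. These are listed in P5_LCDM and in 1 other library, but not in all 5. In 667 tiles with 3 or more such cytosines shared with P5_2iL, the median of P5_LCDM minus P5_2iL was -29.9 points. P5_LCDM was lower in 82.0% of them, against 46.8% of the 38508 eligible tiles read in this way. The median difference was -24.7 points from P5_2iL_F (841 tiles), -20 points from P5_a2iL (611 tiles) and -6.19 points from muscle (516 tiles). Over all eligible tiles each of these 4 medians was 0. The unused cytosines lie in the same tiles and library as those used.

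Muscle, which the rule did not use, had a median level of 65.6% in these tiles (quartiles 39.8% and 81.6%), between P5_LCDM and the other teratomas. P5_LCDM minus muscle had a median of -23.7 points, against 0.0147 points over all eligible tiles. P5_LCDM was 25 points or more below muscle in 1949 of the 4075 tiles (47.8%), against 5.09% of all eligible tiles, and 25 points or more above muscle in 128 (3.14%), against 8.55%. Since the rule chose low values of P5_LCDM, these differences are also a description. They were smaller on the unused cytosines, which could be read in 516 of the chosen tiles. There the median of P5_LCDM minus muscle was -6.19 points, and P5_LCDM was 25 points or more below muscle in 27.9%. This share was 10.966% of the eligible tiles read in the same way. In 3222 of the 4075 tiles (79.1%) P5_LCDM was the lowest of the 5 libraries. This held for 32.1% of all eligible tiles and 42.6% of those at 70% or more in the other 3 teratomas. In all the other chosen tiles muscle was as low or lower, because the rule places P5_LCDM below the other teratomas.

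The tiles divided by muscle into 3 kinds. In 1556 (38.2%) muscle was 30 points or more above P5_LCDM, a distance found in 3.01% of eligible tiles, and P5_LCDM stood 30 points or more below all 4 other libraries, as in 0.985% of eligible tiles. In these, the median level was 83.3% in muscle and 42.6% in P5_LCDM. In 1185 (29.1%) muscle was itself 30 points or more below the other 3 teratomas, as in 6.17% of eligible tiles. Their medians were 27.3% in muscle, 35.3% in P5_LCDM and 88.4% in P5_2iL. Muscle met both conditions in 9 tiles and neither in 1343 (33.0%). Tiles shared with muscle lay inside protein coding genes in 57.6% of cases and had another chosen tile within 10 kb in 18.2%. For tiles with muscle well above P5_LCDM these shares were 39.2% and 9.77%, and over all eligible tiles they were 55.1% and 5.83%. The share inside genes was thus near that of all eligible tiles for the tiles shared with muscle. These shares were not read for eligible tiles grouped by muscle alone.

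**Figure D2:**
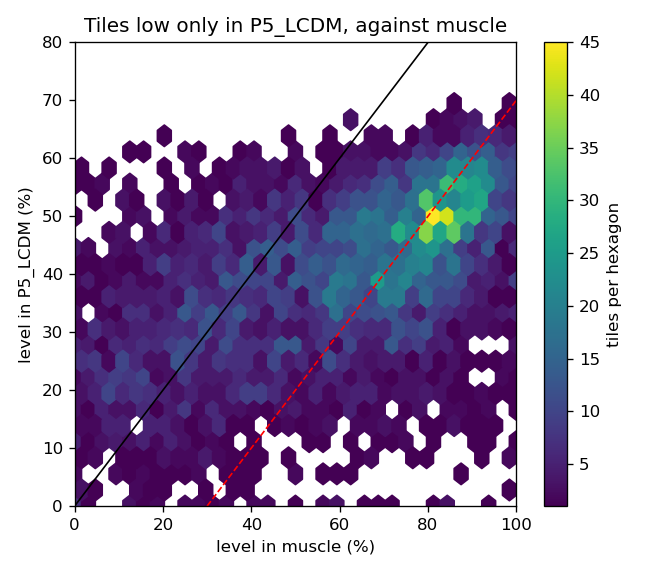
Level of each of the 4075 tiles in muscle (horizontal axis, %) and in P5_LCDM (vertical axis, %), with colour for the number of tiles per hexagon. The black line marks equal levels, and below the red dashed line muscle is 30 points or more above P5_LCDM, which holds for 1556 tiles.

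The 12 widest gaps were in tiles at 0% to 12.5% in P5_LCDM, all of them on 5 to 9 cytosines. The widest, 96 points, lay at chr2:119315001-119316000, 9.78 kb from Dll4, the Notch ligand of endothelial tip cells. Its 5 cytosines were at 0% in P5_LCDM, 60% in muscle and 96%, 97.5% and 100% in P5_2iL, P5_2iL_F and P5_a2iL. In Prkcb, a protein kinase C gene, the 7 cytosines of chr7:122626001-122627000 were at 0% in P5_LCDM, 85.7% in muscle and 100%, 90% and 95.2% in P5_2iL, P5_2iL_F and P5_a2iL. These tiles were methylated in muscle and unmethylated in P5_LCDM. In Fmnl2, a formin gene of actin assembly, the tile at chr2:52991001-52992000 was at 0.694% in P5_LCDM, 0% in muscle and 88.1%, 96.7% and 91.1% in P5_2iL, P5_2iL_F and P5_a2iL. Tiles 94.7 kb from Tnrc6c and 104 kb from Rplp1 were likewise at 0% in both muscle and P5_LCDM and at 90.3% to 100% in the rest. In Card10, a scaffold gene of NF-kB signalling, 7 cytosines were at 8.57% in P5_LCDM, 81.0% in muscle, 97.1% in P5_2iL and 100% in both P5_2iL_F and P5_a2iL. The other 6 of the 12 widest gaps, in or near Man1c1, Zdhhc17, Rab11fip5, Oxr1, Zfp704 and Pdcl2, ran from 79.9 to 88.9 points.

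At the threshold, 4 tiles just inside it, in or near Gas1, Cpeb1, Zfp637 and Slc7a8, had a gap of 30 points. Their levels in P5_LCDM ran from 18.3% to 50%. The 5 eligible tiles just outside it, in or near Hhipl2, Htra3, Map7d1, Psat1 and Ikzf1, had gaps of 29.989 to 29.996 points and levels of 10.3% to 60.8%.

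Tiles with many cytosines were rarer. The tile with most, at chr6:52204001-52205000 over the start of Hoxa5 and inside Hoxa3 as annotated, had 119 cytosines at 35.9% in P5_LCDM, 23.8% in muscle and 90.7%, 75.3% and 73.1% in P5_2iL, P5_2iL_F and P5_a2iL. In that tile the printed promoter window was at 3.14% in P5_LCDM, so its other cytosines were higher. The tile at chr10:127750001-127751000 in Gpr182, a receptor gene of endothelium, had 63 cytosines at 24.7% in P5_LCDM, 49.5% in muscle and 86.7%, 85.0% and 85.2% in P5_2iL, P5_2iL_F and P5_a2iL, a gap of 60.3 points. In Runx1, which encodes a transcription factor of blood formation, neighbouring tiles with 54 and 51 cytosines were at 41.9% and 31.3% in P5_LCDM, against 51.9% and 51.1% in muscle and 65.3% to 97.5% in the other teratomas.

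The chosen tiles were poorer in CpG than the eligible tiles. Their median number of shared cytosines was 8, against 10, and the median number of listed cytosines within 100 bp was 6.88, against 8.68. The share of tiles taken fell from 4.92% of those with 5 cytosines to 0.107% of those with 50 or more. A mean over few cytosines is less precise, and tiles low only in P5_a2iL fell likewise, from 1.17% to 0.0713%. CpG-rich tiles were also mostly unmethylated, with mean levels of 3.06% (muscle) to 4.98% (P5_LCDM) at 30 or more cytosines within 100 bp, and an unmethylated tile could not meet the rule. Among the 91824 tiles at 70% or more in all of the other 3 teratomas, the share taken fell from 4.74% at under 5 cytosines within 100 bp to 1.84% at 20 to 30. It was 5.63% at 30 or more, where 8 of 142 tiles were taken.

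By position, 47.3% of the chosen tiles lay inside protein coding genes, against 55.1% of eligible tiles and 53.2% of those at 70% or more in the other 3 teratomas. Only 166 (4.07%) lay within 1 kb of a gene end, against 14.7% of eligible tiles. Among tiles at 70% or more this share was 4.36% of eligible and 3.57% of chosen tiles. The median distance to the nearest gene end was 31678 bp, against 14240 bp over eligible tiles. The share taken rose from 0.674% within 0.5 kb of a gene end to 4.18% beyond 100 kb. Among tiles at 70% or more it was 2.40% to 2.90% in each class of distance up to 10 kb, with no rise, and then 3.21%, 4.24% and 4.75% at 10 to 50 kb, 50 to 100 kb and beyond 100 kb. The scarcity near gene ends was thus smaller among tiles that were highly methylated in the other 3 teratomas.

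**Figure D3:**
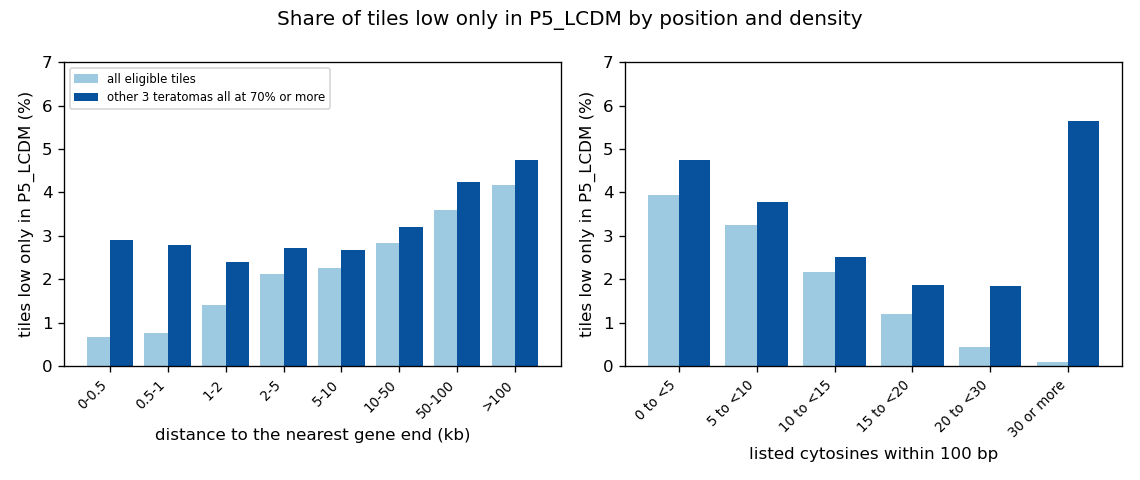
Share of tiles low only in P5_LCDM (vertical axes, %) by distance to the nearest end of a protein coding gene (left, kb) and by the number of listed cytosines within 100 bp (right). Pale bars use all eligible tiles and dark bars those at 70% or more in all of the other 3 teratomas. With distance, pale bars rise from 0.674% to 4.18%, while dark bars stay at 2.40% to 2.90% up to 10 kb and then rise to 4.75%.

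Along the chromosomes the tiles were scattered, with some grouping. Of the 4075 tiles, 12.7% had another chosen tile within 10 kb, against 5.83% of eligible tiles with a chosen tile within 10 kb. The adjoining tile was chosen for 4.98%, against 0.928%. Joining tiles up to 10 kb apart gave 3559 single tiles, 218 pairs, 22 groups of 3, 2 groups of 4 and 1 group of 6. All 19 autosomes carried chosen tiles, from 2.12% of eligible tiles on chromosomes 7, 9 and 17 to 4.04% on chromosome 16, and chromosome 2 followed at 3.35%. Among 959 windows of 2 Mb with 50 or more eligible tiles the median share was 2.32%, and 88 had none. The highest share was 18.9% at 100 to 102 Mb of chromosome 1, with 10 of 53 tiles. At 76 to 78 Mb of chromosome 5, 22 of 181 tiles (12.2%) were taken.

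Levels were also read in the eligible tiles around the chosen ones. Only 752 and 722 chosen tiles had an eligible tile 1 kb before and after them. In these neighbours the mean level was 58.7% and 57.8% in P5_LCDM, close to 61.0% and 58.8% in muscle. It was 72.8% and 71.3% in P5_a2iL, 78.0% and 77.3% in P5_2iL_F and 79.9% and 78.8% in P5_2iL. The median gap was 9.61 and 9.07 points. At 2 kb the median gap was 0.875 points before and 1.25 points after. The gap of the chosen tiles themselves is fixed by the rule, so the fall from them to their neighbours is in part that choice. Tiles chosen on 1 strand had a median gap of 18.6 points on the other. They are another set of tiles, chosen in another way, so that value cannot be set directly against the neighbours. Neighbours at 1 kb that were not themselves chosen had median gaps of 6.50 and 6.11 points.

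**Figure D4:**
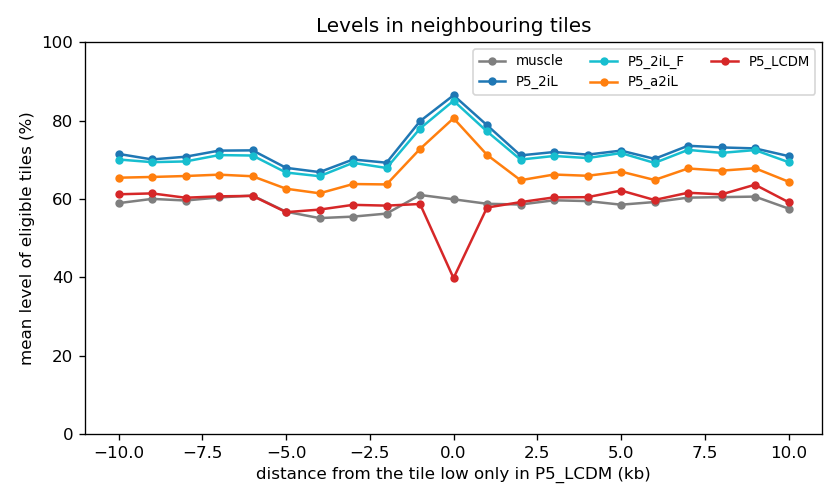
Mean methylation level (vertical axis, %) of eligible tiles by distance from a tile low only in P5_LCDM (horizontal axis, kb), with 1 line for each library. P5_LCDM is at 39.8% at distance 0 and at 58.7% and 57.8% at 1 kb on either side, while P5_2iL goes from 86.5% to 79.9% and 78.8%. Muscle is at 59.9% at distance 0 and at 61.0% and 58.8% at 1 kb.

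The longest group held 6 chosen tiles of 11 eligible in Hspg2, the gene of the basement membrane proteoglycan perlecan, at chr4:137474001-137491000. A group begins and ends at a chosen tile, so such counts of eligible tiles cover that stretch alone. Here and below, mean levels over the tiles of a group or gene are weighted by the number of cytosines in each tile. Such means over the 6 tiles were 26.5% in P5_LCDM, 27.8% in muscle and 79.4%, 77.4% and 61.9% in P5_2iL, P5_2iL_F and P5_a2iL. Muscle and P5_LCDM were similar in this mean, and muscle ranged from 6.64% to 51.4% among the tiles. Groups of 4 lay in Sema4c, a semaphorin gene, and in Wwc1, a scaffold gene of Hippo signalling. In Sema4c the means were 33.6% in P5_LCDM, 67.5% in muscle and 93.3%, 90.9% and 80.5% in P5_2iL, P5_2iL_F and P5_a2iL. In Wwc1 they were 43.7% in P5_LCDM, 62.3% in muscle and 84.3%, 83.9% and 79.7% in P5_2iL, P5_2iL_F and P5_a2iL. In both of these groups P5_LCDM was below muscle.

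Of the groups of 3, that in Ptpru, a receptor tyrosine phosphatase gene, had the largest mean gap, 54.1 points without weights. Its mean levels were 35.4% in P5_LCDM and 67.6% in muscle. In Dll4 itself the 3 adjoining tiles of chr2:119332001-119335000 were chosen, of 14 eligible tiles from 5 kb before to 5 kb after the gene. They had means of 33.1% in P5_LCDM, 63.9% in muscle and 93.5%, 94.4% and 79.9% in P5_2iL, P5_2iL_F and P5_a2iL. In Kit, a receptor gene of blood, pigment and germ cells, 3 of 5 tiles had means of 21.6% in P5_LCDM, 41.5% in muscle and 77.6%, 70.5% and 72.6% in P5_2iL, P5_2iL_F and P5_a2iL. Muscle varied within Kit from 5.68% to 79.8%, while P5_LCDM ran from 7.14% to 33.2%. The groups in Card10 and across Fis1 and Cldn15 had P5_LCDM means of 29.3% and 19.3% and muscle means of 45.7% and 28.8%.

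Chosen tiles lay in the bodies of 1479 of 16249 protein coding genes with an eligible tile (9.10%). In the body, 329 genes had 2 or more and 40 had 4 or more. Counting 5 kb on either side, 1802 of 17542 genes (10.3%) had 1 or more. Genes with a chosen tile in the body were longer, with a median of 84.4 kb against 21.8 kb, and had a median of 11 eligible tiles against 3. Hspg2 had most, 7 of 51 eligible tiles. There were 6 each in Rbm20 (of 36), which encodes a splicing factor for titin, Eya2 (of 39), Rgs3 (of 39), Sh3pxd2a (of 56), Tiam1 (of 72), an activator of Rac, and Tenm3 (of 103). Pik3c2g and Spag16, a gene of the sperm flagellum, had 5 of 12 eligible tiles each, the largest share (41.7%) among these 10 genes, and Wwc1 had 5 of 33. In Rbm20 the 6 tiles had means of 36.8% in P5_LCDM, 57.6% in muscle and 90.9%, 85.0% and 82.7% in P5_2iL, P5_2iL_F and P5_a2iL. In Spag16 the 5 tiles were higher in every library, at 80.1% in muscle, 92.0% to 96.0% in the other teratomas and 59.5% in P5_LCDM.

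Genes were then read in 17 lists of tissue markers and pathways, counting tiles from 5 kb before to 5 kb after each gene. For all protein coding genes 2149 of 102765 such tiles (2.09%) were chosen. The share was highest for the endothelium list, at 15 of 183 tiles (8.20%), in or near 8 of 16 measured genes. Among tiles at 70% or more in the other 3 teratomas it was 11.6%, against 3.06% for all genes. Under 9 other settings of the rule the endothelium share ran from 3.83% to 12.6%, against 0.705% to 5.97% for all genes, and it was above that of all genes under each setting. These are counts on few genes, in some of which neighbouring tiles were counted, and no test was made of them.

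The 8 endothelial genes were Kdr, Flt1 and Flt4, the receptors of vascular endothelial growth factors, Nos3, Eng, Cdh5, Pecam1 and Plvap. In Kdr, 3 of 8 eligible tiles were chosen, with means of 36.1% in P5_LCDM, 52.6% in muscle and 81.9%, 84.9% and 89.9% in P5_2iL, P5_2iL_F and P5_a2iL. The tile at chr5:75962001-75963000 in Kdr was at 14.5% in P5_LCDM and 86.7% in muscle, whereas the other 2 were within 5 points of muscle. In Flt1 the 3 tiles of 39 had means of 35.5% in P5_LCDM, 71.4% in muscle and 76.3%, 85.0% and 79.7% in P5_2iL, P5_2iL_F and P5_a2iL, and P5_LCDM was the lowest library in each. At Nos3, the endothelial nitric oxide synthase, adjoining tiles over 1 end of the gene were at 31.6% and 28.4% in P5_LCDM, 56.6% and 38.6% in muscle and 65.8% to 89.4% in the others. In Eng, a co-receptor of TGF-beta signalling, 2 tiles were at 38.9% and 27.2% in P5_LCDM and at 52.2% and 34.1% in muscle. In Cdh5, the cadherin of endothelial junctions, 2 tiles were at 42.7% and 40.7% in P5_LCDM and at 75.8% and 44.4% in muscle. Single tiles in or near Flt4, Pecam1 and Plvap were at 12.1%, 49.8% and 39.9% in P5_LCDM. Over the 15 tiles the median of P5_LCDM minus muscle was -11.4 points. Over all eligible tiles near the listed endothelial genes the median gap was -1.39 points, against -0.46 points over all protein coding genes, and the chosen tiles were a minority there.

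The blood and immune list had the next highest share, 9 of 153 tiles (5.88%), all in or near 2 of 18 genes. Among tiles at 70% or more its share was 7.35% of 68 tiles, and there the kidney and urogenital list came second to endothelium, with 9.68% of 31 tiles. Runx1 had 6 of 39 tiles, at means of 37.3% in P5_LCDM, 51.4% in muscle and 93.3%, 76.7% and 78.7% in P5_2iL, P5_2iL_F and P5_a2iL. Runx3, a related factor of T cells and neurons, had 3 of 30, among them chr4:135168001-135169000 at 3.03% in P5_LCDM, 36.4% in muscle and 95.5%, 76.4% and 81.8% in P5_2iL, P5_2iL_F and P5_a2iL. The other 16 measured genes of the list had no chosen tile.

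Genes of cell adhesion and axon guidance had chosen tiles in 22 of 41 (53.7%), the largest share of genes, against 10.3% of all measured genes. By tiles the share was 33 of 946 (3.49%), against 2.09% for all genes. Among tiles at 70% or more in the other 3 teratomas it was 4.41%, against 3.06%. Some genes of this list are long, such as Robo2 at 1556 kb, and a gene with more eligible tiles can more readily have a chosen one. Robo1, a receptor for Slit proteins, had 3 of 34 tiles at means of 43.5% in P5_LCDM, 64.4% in muscle and 86.1%, 90.9% and 85.8% in P5_2iL, P5_2iL_F and P5_a2iL. Robo2, Ephb2 (an ephrin receptor) and Slit1 (a ligand of Robo receptors) had 3, 3 and 2 tiles, with P5_LCDM means of 37.5%, 44.0% and 32.3%. In Ephb2 the mean in muscle was lower, at 25.1%, but the tiles differed: muscle was at 3.75%, 15.9% and 70.1% where P5_LCDM was at 55.3%, 39.2% and 32.7%. Among signalling genes of the Wnt, Notch, Hedgehog and TGF-beta pathways, 12 of 68 had a chosen tile (16 of 816 tiles, 1.96%). Lrp5, a Wnt co-receptor, had 1 tile with a gap of 70 points, at 82.2% in muscle and 26.7% in P5_LCDM. Axin2, a target and inhibitor of Wnt signalling, had 2 tiles at a mean of 49.99% in P5_LCDM and 16.8% in muscle.

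The germline list had 5 of 155 tiles (3.23%), 1 each for Ddx4, Dmrt1, Sycp3, Mov10l1 and Stk31, with P5_LCDM at 37.3% to 60.9%. The lowest shares were those of genes regulated by Polycomb, with 3 of 832 tiles (0.361%), in or near Wt1, Tbx5 and Pax5, and of pluripotency genes, with 1 of 185 (0.541%), in L1td1. Only 74 of the 832 Polycomb tiles were at 70% or more in the other 3 teratomas, and 4.05% of those were chosen, against 3.06% for all genes. Skeletal muscle genes had 5 of 265 tiles (1.89%), at Ryr1, Myf6, Mef2c and Casq1. The lists of neural genes (7 of 373), cardiac (2 of 143) and smooth muscle (2 of 92), kidney (3 of 148), mesenchyme and cartilage (6 of 359), epithelium and gut (2 of 209), trophoblast (2 of 200) and the DNA methylation machinery (2 of 152, both in Mbd2, a reader of methylated DNA) had 0.957% to 2.17%. In Wt1, which encodes a transcription factor of kidney and gonad, the tile was at 13.8% in P5_LCDM, 30.8% in muscle and 75.6%, 75.8% and 87.2% in P5_2iL, P5_2iL_F and P5_a2iL. Among imprinted genes (3 of 184 tiles, 1.63%), both eligible tiles at Mcts2, which is expressed from the paternal copy, were chosen. With 30 and 48 cytosines they were at 29.8% and 35.4% in P5_LCDM, 29.9% and 31.0% in muscle, 82.9% and 82.1% in P5_a2iL, 85.3% and 92.3% in P5_2iL_F, and 98.4% and 96.7% in P5_2iL. P5_LCDM was thus near muscle at Mcts2, and the other teratomas were far above both.

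**Figure D5:**
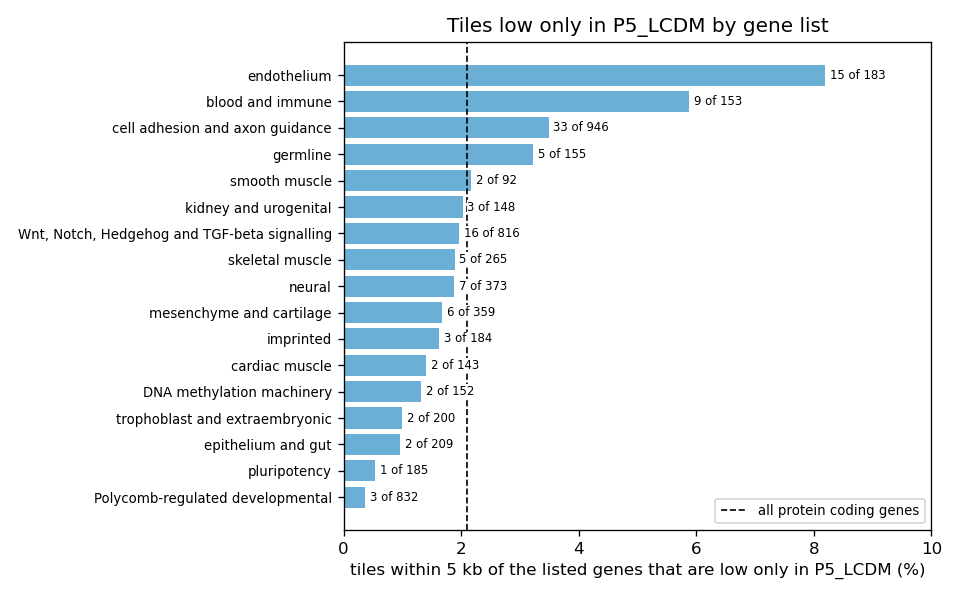
Share of eligible tiles within 5 kb of the genes of each list that were low only in P5_LCDM (horizontal axis, %), with the number of chosen and eligible tiles beside each bar. The dashed line is the share for all protein coding genes, 2.09%. The endothelium list has 8.20%, the blood and immune list 5.88% and the Polycomb list 0.361%.

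Of the 166 chosen tiles within 1 kb of a gene end (0.715% of 23205 such eligible tiles), 50 were at the 5′ end of a gene, 85 at the 3′ end and 39 at a gene without a strand in the table used, and some tiles lay at more than 1 end. These are 0.335% of 14932 eligible tiles at 5′ ends, 1.92% of 4426 at 3′ ends and 0.757% of 5154 without a strand. Among tiles at 70% or more in the other 3 teratomas the order was the opposite, with 3.75% of 933 tiles at 5′ ends and 2.49% of 2490 at 3′ ends. The median levels of the 166 were 56.9% in muscle and 37.6% in P5_LCDM. The widest gap was at the 5′ end of Pdcl2, a phosducin-like gene, where 5 cytosines were at 6.78% in P5_LCDM, 0% in muscle and 90%, 86.7% and 92% in P5_2iL, P5_2iL_F and P5_a2iL. At the 3′ end of Lmf2 10 cytosines were at 16.5% in P5_LCDM, 26% in muscle and 85.0%, 81.2% and 80.4% in P5_2iL, P5_2iL_F and P5_a2iL. At the 3′ end of Gtpbp2 16 cytosines were at 24.3% in P5_LCDM, 44.3% in muscle and 94.4%, 87.1% and 92.5% in P5_2iL, P5_2iL_F and P5_a2iL. In these 3 tiles muscle was far below the other teratomas as well. At the 5′ end of Cldn15, a claudin of gut tight junctions, muscle was at 22.8% and P5_LCDM at 28.2%, against 81.3% to 99.0%. Fblim1, Gpr182 and Mcts2, described elsewhere, were also among the 12 widest gaps at gene ends. The remaining 5, at Ucma, Gm9595, Npffr1, Gm36210 and Slc29a4, were at 12.5% to 27.2% in P5_LCDM and at 22.1% to 79.4% in muscle.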

How the data were processed

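Levels of CpG methylation in 5 reduced representation bisulfite libraries were used as deposited by the authors, in percent for each cytosine of either strand, without read counts. The tools were Bismark and Trim Galore 0.6.4 and the build was mm10, per the submitters' processing notes. For Bismark's version, call settings and coverage minimum, the sources used here give nothing. Positions were taken as counted from 1: in RefSeq promoter windows 293343 of 293343 shared cytosines fell in a CpG, against 56.4% and 56.1% when moved by 1 base.

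Tile levels weighted cytosines equally. Mean levels over the tiles of a group or gene were weighted by the cytosines of each tile, whereas mean gaps and the means over neighbouring tiles were not. Thresholds had a tolerance of 0.001 points. Genes came from RefSeq on GRCm38.p6 (20665 autosomal protein coding genes, of which 16457 had a strand), and distances use the nearer end of a gene. Levels are given without intervals because read depth is unknown, and with 1 library a group no test was made. Calls are by size alone. The tiles, lists and settings were chosen with earlier results of these data known.

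Named genes were those at the 12 widest gaps, the 10 genes with most tiles, the 8 largest groups of tiles joined at 10 kb, the 12 widest gaps within 1 kb of gene ends, up to 4 genes for each list, and 5 tiles on each side of the threshold, of which 1 is not reported here. Other genes, among them those at the tiles with most cytosines, the printed promoters and further members of lists, were named after their values were seen. Other settings changed the minimum of cytosines, the gap, the grid, the tile size, the cytosines used, the mean and the scaling. The tile code was tested on simulated data. Computation used pandas 2.3.3, NumPy 2.4.6 and Python 3.11.15, and figures matplotlib 3.10.9.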

Additional observations from a re-analysis of the deposited data

How the results depend on the processing

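Of 64 alternative values 27 stayed close to the reported one, 37 moved and 0 reversed. Close meant within a fixed factor for the number of tiles, and otherwise within an interval that counts tiles as independent. Only the median of P5_LCDM minus muscle could be counted as reversed. It was negative under each setting, but the rule itself takes tiles with low values of P5_LCDM, so this is no support. The causes of the moves were not tested. The number of tiles was 7018 with a minimum of 3 cytosines, 1372 with 10, 12388 with a gap of 20 points, 1267 with 40, 8020 with medians in place of means, 2176 with the mean levels of the teratomas made equal, and 843 with a gap of 30 points on each strand alone, a setting added after seeing the data. In the same order up to the medians, P5_LCDM minus muscle had a median of -27.1, -18.9, -19.1, -26.2 and -29.0 points, the share 25 points or more below muscle was 53.8%, 38.7%, 34.4%, 51.3% and 56.7%, the share inside genes was 45.1%, 54.5%, 44.3%, 51.3% and 44.5%, and the share with another chosen tile within 10 kb was 15.7%, 8.38%, 23.3%, 7.26% and 16.9%. With equal teratoma means the last 3 shares were 49.6%, 51.2% and 9.83%. With all listed cytosines of each library the median difference from muscle was -24.8 points and 49.7% were 25 points or more below it. The share with another chosen tile within 10 kb was 11.5% with the grid moved by 500 bp and 16.8% with tiles of 500 bp. The median number of cytosines was 5 and 13 with minimums of 3 and 10. The settings for the endothelium list were also added after seeing the data, and its share was 3.83% with a gap of 40 points, against 0.705% for all genes. Under each of the 9 planned settings, chosen tiles were more often 25 points below muscle, less often inside genes, and more often near another chosen tile than eligible tiles. The first of these follows at least in part from the choice of low values of P5_LCDM, so it is no support either. No paired analysis was possible because each group has 1 library. Unknown read depth leaves the error of single tiles unknown, above all on 5 cytosines.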

Other observations

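On the X chromosome, which the rule leaves out, 189 of 4212 eligible tiles (4.49%) were 30 points or more lower in P5_LCDM than in the other 3 teratomas, against 2.58% on the autosomes. Mean levels over the X-linked eligible tiles were 61.9% in P5_LCDM, 66.3% in muscle and 72.1%, 71.6% and 68.6% in P5_2iL, P5_2iL_F and P5_a2iL. P5_LCDM was thus the lowest of the 5 libraries on the X chromosome, below muscle by this mean, whereas over the autosomes muscle was the lowest. The rule was not applied on the X chromosome with another teratoma in the place of P5_LCDM, and the sex of the animals and stem cells was not considered.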
